A study of Mus musculus with 10 samples.

Results

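The genes described here are 39 genes of S phase and DNA replication, measured as RNA in mouse B-cell lymphomas that lack Suv39h1. They were chosen by name from known roles in S phase, and a probe set counted for a gene only where the platform annotation gave it that gene's symbol alone. All 39 had such a probe set, among 18193 genes with one, and all 39 were among the 11472 genes tested. In each gene the probe set with the highest mean signal was used. By role, 8 genes belong to helicase loading, 4 to helicase activation and the fork, 8 to polymerases, the clamp and the lagging strand, 3 to deoxynucleotide supply, 8 to chromatin assembly and methylation, 6 to repair and ubiquitin turnover, and 2 are E2F transcription factors.

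The series asks what Adriamycin (ADR, doxorubicin), a DNA-damaging drug that induces senescence in Bcl2-protected lymphomas with intact Suv39h1, does to transcripts when Suv39h1, a histone H3 lysine 9 methyltransferase, is missing. In the ADR group, Emu-myc;Suv39h1-/- primary lymphoma cells taken from lymph nodes, carrying retroviral Bcl2 (MSCVpuro) and selected with puromycin, were treated in vitro with 0.05 µg/ml ADR for 5 days. The untreated group held the same lymphomas without the drug. There were 5 lymphomas with 1 array per condition, which the labels call lymphoma_5783, lymphoma_7890, lymphoma_9250, lymphoma_1032 and lymphoma_4936, so that each group has 5 arrays and the number pairs them. Both groups share the Suv39h1 deletion, the Myc transgene, which the Emu enhancer drives in the B lineage, the Bcl2 virus and the irradiated NIH 3T3 fibroblasts they grew on. No age of the mice is in the labels, and lymphomas with intact Suv39h1 were not analysed here. A lymphoma stands for 1 tumour, and p-values measure the spread between these tumours.

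Before S phase, the origin recognition complex, Cdc6 and Cdt1 load the Mcm2 to Mcm7 helicase ring onto DNA, and geminin (Gmnn) keeps Cdt1 from loading it again. Cdc45 and the GINS complex turn the ring into a working helicase, and polymerases, the sliding clamp Pcna and its loaders copy both strands while nucleotide enzymes and histone chaperones supply the new chromatin. Many of these genes are transcribed late in G1 under E2F factors, which Rb family proteins hold back in resting, damaged or senescent cells. Bulk RNA cannot tell fewer cells in S phase from less RNA per cell.

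Values are log2 signals of a probe set, and a change is the log2 difference of ADR minus untreated within a lymphoma, so that -1 is a halving. Signals of different probe sets are on different scales and are not compared. Where 5 values of a group stand in a row, they are those of lymphoma_5783, lymphoma_7890, lymphoma_9250, lymphoma_1032 and lymphoma_4936, in that order. Over all probe sets, 9 arrays had medians of 4.43 to 4.50, and the ADR array of lymphoma_1032 had one of 4.15. Cdkn1a, the p53 target that encodes the cell cycle inhibitor p21, was higher in ADR cells in all 5 lymphomas, with changes of 0.40, 1.36, 0.47, 0.28 and 0.49.

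In 4 of the 5 lymphomas the replication genes had lower signals in ADR cells than in untreated cells, and in lymphoma_4936 they had higher ones. The signal was lower in ADR cells for 39 of 39 genes in lymphoma_5783, 38 in lymphoma_7890, 36 in lymphoma_9250 and 36 in lymphoma_1032, but for 1, Slbp, in lymphoma_4936. Among all genes tested the lower share was 46.3%, 51.5%, 52.9%, 65.6% and 43.6% in the same order. The median change over the 39 genes was -0.65, -0.62, -0.39, -0.46 and 0.78, against 0.04, -0.01, -0.02, -0.17 and 0.06 over all genes tested. The sign pattern of lower in 4 lymphomas and higher in lymphoma_4936 was held by 33 of 39 genes, all but Tyms, Chaf1b, Cdca7, Slbp, Ung and E2f1, and by 9.87% of all genes tested. This pattern was described after the values were seen, and the sign in lymphoma_4936 rests on the labels of its pair of arrays. Signs were not counted on arrays centred on their median. In lymphoma_1032 the ADR array had a median of 4.15 over all probe sets, against 4.44 for the untreated array. Changes as small as -0.03, for Mcm2 and Fen1, count as lower there.

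**Figure D1:**
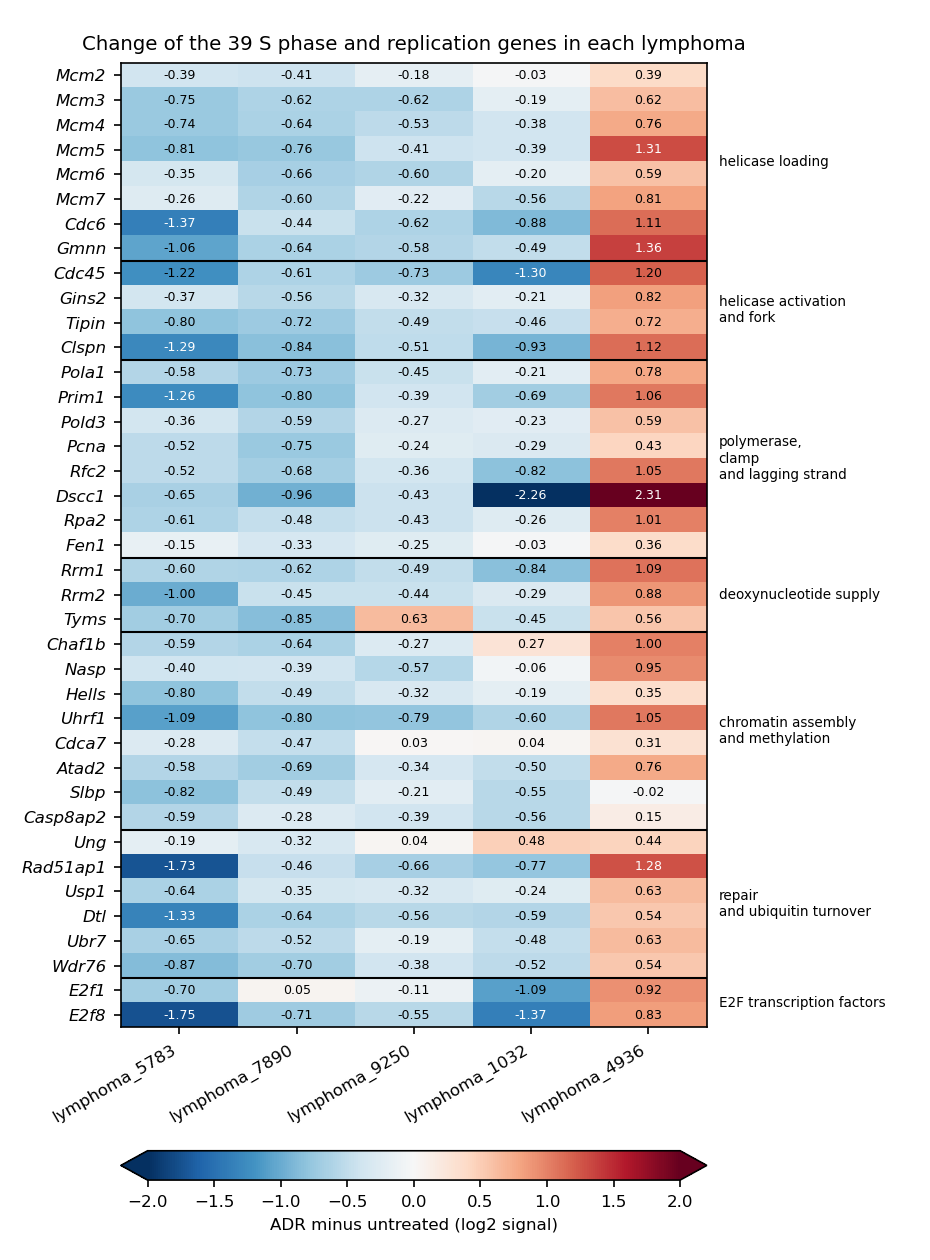
Change (ADR minus untreated, log2 signal) of the 39 S phase and replication genes, 1 row per gene, grouped by role, and 1 column per lymphoma. Blue cells are lower and red cells higher in ADR; the column of lymphoma_4936 is red for 38 of 39 genes, and Slbp at -0.02 is the exception.

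No replication gene passed the test across lymphomas. In the paired limma fit 0 of 39 genes had an adjusted p below 0.05, with a smallest adjusted p of 0.565, and 0 of 11472 genes did so, which is 0% of those tested. In the same fit 973 of all genes had an unadjusted p below 0.05, and of the 39 there were 2, Slbp and Casp8ap2, both lower in ADR, against 4.52% of all genes tested. The mean change over the 5 lymphomas was below 0 in 38 of 39 genes, all but Ung, against 55.2% of all genes tested. The median of the mean changes was -0.27 over the 39 genes and -0.02 over all genes tested. In 0 of 39 genes did all 5 ADR arrays lie below all 5 untreated arrays, against 0.27% of all genes tested.

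Leaving out lymphoma_4936 moved the count at an unadjusted p, the count of genes with separate groups and the median, while the count past the test, 0 of 39, and the count of genes lower on average, 38 of 39, were the same without it. This lymphoma was singled out because of its values, so that the p-values without it describe how the fit moves and are no separate test. Without it, 0 of 39 genes had an adjusted p below 0.05 in limma (0% of all genes tested did), with 0.153 as the lowest value. Then 32 of 39 genes were lower in ADR at an unadjusted p below 0.05, against 8.31% of all genes tested. The 7 others were Mcm2, Fen1, Tyms, Chaf1b, Cdca7, Ung and E2f1. The median of the mean changes without this lymphoma was -0.52 over the 39 genes and -0.04 over all genes tested. In 11 genes, against 2.97% of all genes tested, the 4 remaining ADR arrays all lay below the 4 remaining untreated arrays. These were Cdc6, Cdc45, Tipin, Clspn, Prim1, Rfc2, Rrm1, Rrm2, Rad51ap1, Ubr7 and E2f8. Without lymphoma_1032, whose ADR array stood apart in its median, 37 of 39 genes were lower on average, against 47.2% of all genes tested. The median over the 39 genes was then -0.23. In that limma fit 0 of the 39 genes had an unadjusted p below 0.05, and 840 of all genes tested did.

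**Figure D2:**
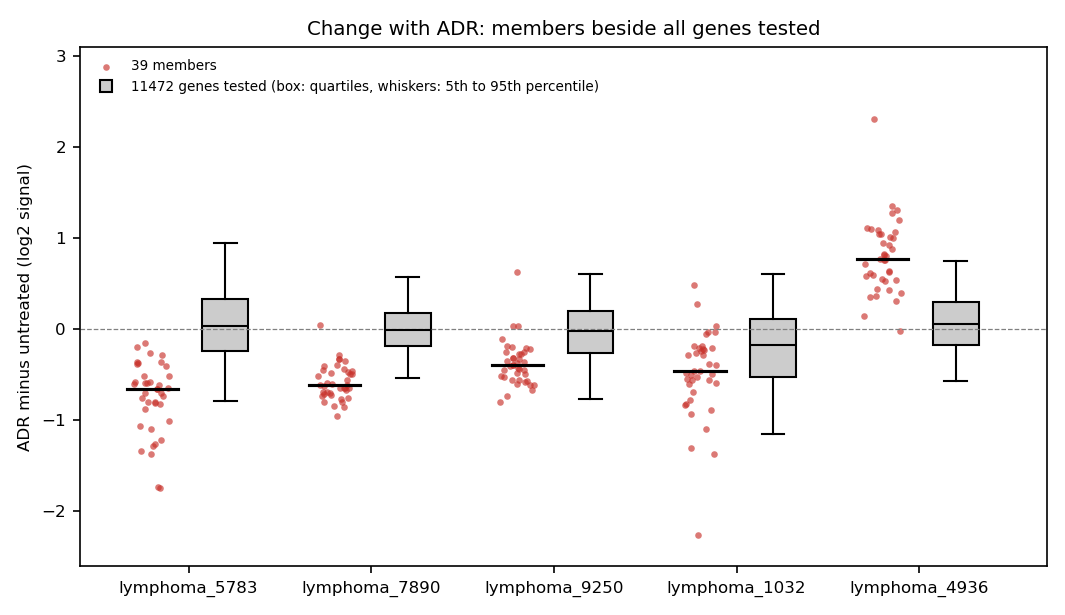
Change (ADR minus untreated, log2 signal) in each lymphoma, with points for the 39 genes and a bar at their median, beside a box of quartiles with whiskers at the 5th and 95th percentiles for the 11472 genes tested. The bar lies below the box of all genes in lymphoma_5783, lymphoma_7890 and lymphoma_9250, inside it in lymphoma_1032 and above it in lymphoma_4936.

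Promoter sequence is shown because E2F factors bind many of these genes near their starts and because most of these genes had 1 sign within each lymphoma. RefSeq windows of the GRCm38.p6 build, from 250 bases before to 50 bases after a gene's start, were found for 31 of 39 genes, in 35 windows. Windows were searched on both strands for the 8-letter words TTTCCCGC, TTTGGCGC, TTTCGCGC and TTTGCCGC, forms of the E2F motif, and for CCAAT, the motif of NF-Y. An E2F word was found in 14 of 35 windows (40%), against 3.89% of the 11894 windows of tested genes and 2.26% of all 32851 windows. CCAAT was found in 65.7% of the windows, against 37.5% of those of tested genes. The median GC content was 59.0% in these windows and 60.7% in those of tested genes. The 14 genes with an E2F word had a median change of -0.48 over the other 4 lymphomas and 0.62 in lymphoma_4936, and the 17 without one had -0.47 and 0.88; this difference was not tested. The sign pattern was held by 13 of the 14 genes with an E2F word, all but Cdca7, and by 12 of the 17 without one, all but Chaf1b, E2f1, Slbp, Tyms and Ung.

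The windows of 5 genes with an E2F word and of 2 without one are given below, with the word in capitals. The 5 have the sign pattern and Slbp and Ung do not, but these examples were chosen and show no link between word and pattern. The Mcm5 window (chr8:75109259-75109558, plus strand) holds TTTCGCGC at position -153 and GCGCCAAA at -149, which overlap, the Cdc6 window (chr11:98907901-98908200, plus strand) holds GCGGGAAA at -138, and the Uhrf1 window (chr17:56304063-56304362, plus strand), 1 of 2 of that gene, holds TTTCGCGC at -185. The Dtl window (chr1:191575495-191575794, minus strand) holds TTTGGCGC at -8 and the Casp8ap2 window (chr4:32615220-32615519, plus strand) holds it at -176. Positions are counted from the start of the gene on its own strand. The windows of Slbp (chr5:33652525-33652824, minus strand) and Ung (chr5:114130185-114130484, plus strand) hold none of the 4 words.
Mcm5: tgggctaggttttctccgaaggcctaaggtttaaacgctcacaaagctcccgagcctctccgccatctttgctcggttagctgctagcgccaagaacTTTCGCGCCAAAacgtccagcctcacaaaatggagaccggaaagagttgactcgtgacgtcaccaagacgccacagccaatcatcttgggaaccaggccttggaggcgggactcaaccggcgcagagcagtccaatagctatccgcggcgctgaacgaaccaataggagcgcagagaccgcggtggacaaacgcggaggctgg
Cdc6: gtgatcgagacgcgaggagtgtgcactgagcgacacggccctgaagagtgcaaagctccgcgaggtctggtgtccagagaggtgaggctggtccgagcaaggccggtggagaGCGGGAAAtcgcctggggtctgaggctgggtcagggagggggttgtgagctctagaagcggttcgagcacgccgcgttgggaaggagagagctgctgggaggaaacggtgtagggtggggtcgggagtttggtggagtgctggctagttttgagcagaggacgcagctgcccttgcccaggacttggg
Uhrf1: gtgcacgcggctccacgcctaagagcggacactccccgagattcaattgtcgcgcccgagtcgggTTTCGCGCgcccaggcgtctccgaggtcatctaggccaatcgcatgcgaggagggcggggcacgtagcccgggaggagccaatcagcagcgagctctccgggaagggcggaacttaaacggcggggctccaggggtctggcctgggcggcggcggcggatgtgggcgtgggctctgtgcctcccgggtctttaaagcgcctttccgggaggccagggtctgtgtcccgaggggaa
Dtl: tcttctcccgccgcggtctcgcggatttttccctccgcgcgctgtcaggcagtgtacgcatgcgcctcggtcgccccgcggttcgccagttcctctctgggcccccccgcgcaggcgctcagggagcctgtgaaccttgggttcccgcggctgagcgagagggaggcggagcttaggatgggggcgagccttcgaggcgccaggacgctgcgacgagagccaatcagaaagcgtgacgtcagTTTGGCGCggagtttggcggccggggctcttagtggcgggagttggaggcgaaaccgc
Casp8ap2: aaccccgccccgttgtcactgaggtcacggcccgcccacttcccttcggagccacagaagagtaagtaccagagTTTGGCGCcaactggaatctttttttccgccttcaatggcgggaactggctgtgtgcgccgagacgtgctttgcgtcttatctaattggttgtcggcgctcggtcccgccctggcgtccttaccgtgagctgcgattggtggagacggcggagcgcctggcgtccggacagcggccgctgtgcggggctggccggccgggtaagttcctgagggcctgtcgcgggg
Slbp: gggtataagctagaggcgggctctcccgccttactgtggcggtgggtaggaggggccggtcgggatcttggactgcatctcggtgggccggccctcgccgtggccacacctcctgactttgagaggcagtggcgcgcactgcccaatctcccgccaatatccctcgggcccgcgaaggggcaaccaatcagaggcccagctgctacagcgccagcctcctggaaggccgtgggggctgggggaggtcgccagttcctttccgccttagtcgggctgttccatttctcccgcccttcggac
Ung: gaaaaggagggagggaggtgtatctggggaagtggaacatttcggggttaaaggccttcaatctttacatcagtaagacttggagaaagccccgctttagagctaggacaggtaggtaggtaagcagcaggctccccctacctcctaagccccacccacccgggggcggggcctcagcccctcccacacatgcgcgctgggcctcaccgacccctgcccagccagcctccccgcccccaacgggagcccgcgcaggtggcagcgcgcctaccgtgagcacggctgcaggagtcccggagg

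The 8 genes of helicase loading all had lower mean signals in ADR cells, with changes of -0.12 for Mcm2 to -0.44 for Cdc6, and 0 passed the test. Their median change was -0.74, -0.63, -0.56, -0.39 and 0.79 in the 5 lymphomas, and all 8 had the sign pattern. Mcm3, a subunit of the helicase ring, had log2 signals of 9.27, 9.61, 9.83, 9.05 and 9.94 in ADR cells, against 10.02, 10.22, 10.44, 9.24 and 9.32 in untreated cells. The groups overlapped, with the highest ADR signal in lymphoma_4936 and the lowest untreated signal in lymphoma_1032. Its change was -0.31 ± 0.56 (mean ± SD over 5 lymphomas, adjusted p = 0.663 in limma) and -0.54 without lymphoma_4936.

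Mcm7, another ring subunit, had 11.01, 11.11, 11.39, 10.20 and 11.32 in ADR cells, against 11.27, 11.71, 11.61, 10.76 and 10.51 in untreated cells. Here the lowest ADR signal was in lymphoma_1032 and the lowest untreated signal in lymphoma_4936, with overlapping groups and a change of -0.17 ± 0.57 (adjusted p = 0.818 in limma), or -0.41 without lymphoma_4936. Mcm5, whose promoter window holds overlapping E2F words, had 9.40, 10.03, 10.11, 9.21 and 10.38 in ADR cells, against 10.21, 10.79, 10.51, 9.60 and 9.06 in untreated cells. Its untreated signal in lymphoma_4936 lay below all 5 ADR signals, and its change there, 1.31, was the largest of the 6 ring subunits. Over the 5 lymphomas Mcm5 had a change of -0.21 ± 0.87 (adjusted p = 0.844 in limma), and of -0.59 without lymphoma_4936.

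Cdc6, which brings the ring to the origin, and Gmnn, which restrains loading, had wider ranges than the ring subunits. Both were picked for their values. Cdc6 had changes of -1.37, -0.44, -0.62, -0.88 and 1.11, and Gmnn of -1.06, -0.64, -0.58, -0.49 and 1.36. The untreated Cdc6 signal in lymphoma_4936, 7.40, compared with 8.49 to 8.70 in the other untreated arrays.

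The 4 genes of helicase activation and the fork had a median change of -1.01, -0.66, -0.50, -0.69 and 0.97, and all 4 had the sign pattern. Tipin, which with Timeless protects the fork and serves the replication checkpoint, had 9.68, 9.82, 10.06, 9.66 and 10.23 in ADR cells, against 10.47, 10.54, 10.55, 10.12 and 9.51 in untreated cells. In the 4 lymphomas other than lymphoma_4936 all ADR signals lay below all untreated signals, whereas the untreated signal of lymphoma_4936 was the lowest of all 10 arrays. The change of Tipin was -0.35 ± 0.62 (adjusted p = 0.653 in limma), and -0.62 without lymphoma_4936 (adjusted p = 0.153). Cdc45, a subunit of the active helicase, had changes of -1.22, -0.61, -0.73, -1.30 and 1.20. Clspn, the claspin adaptor through which Chk1 is activated, had changes of -1.29, -0.84, -0.51, -0.93 and 1.12. Gins2, a GINS subunit, had the smallest mean change of the group, -0.13 ± 0.54, and a narrow ADR range of 6.96 to 7.40.

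All 8 genes of polymerases, the clamp and the lagging strand were lower on average, from -0.08 for the flap endonuclease Fen1 to -0.42 for Prim1, the catalytic subunit of primase, and 0 passed the test. Their median change was -0.55, -0.71, -0.38, -0.27 and 0.89, and all 8 had the sign pattern. Pcna, the sliding clamp, had 11.69, 11.89, 12.06, 11.46 and 11.98 in ADR cells, against 12.21, 12.64, 12.30, 11.75 and 11.55 in untreated cells. The highest untreated signal was in lymphoma_7890 and the lowest in lymphoma_4936, and the groups overlapped. Pcna had a change of -0.27 ± 0.44 (adjusted p = 0.653 in limma), and of -0.45 without lymphoma_4936. Prim1 had changes of -1.26, -0.80, -0.39, -0.69 and 1.06, and Rfc2, a clamp loader subunit, of -0.52, -0.68, -0.36, -0.82 and 1.05.

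Fen1 and Dscc1, a subunit of the clamp loader that serves sister chromatid cohesion, were the extremes of spread among the 39 genes. Fen1 had changes of -0.15, -0.33, -0.25, -0.03 and 0.36, with an SD of 0.27, and Dscc1 of -0.65, -0.96, -0.43, -2.26 and 2.31, with an SD of 1.67. Dscc1 had 2 signals at or below the filter of 4.43, 3.57 in the ADR array of lymphoma_1032 and 3.36 in the untreated array of lymphoma_4936. Its mean change of -0.40 turned to 0.07 without lymphoma_1032.

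Deoxynucleotide supply was represented by Rrm1 and Rrm2, the subunits of ribonucleotide reductase, and Tyms, thymidylate synthase. The 3 genes had a median change of -0.70, -0.62, -0.44, -0.45 and 0.88. Rrm1 had 9.46, 9.60, 9.31, 9.01 and 9.77 in ADR cells, against 10.07, 10.23, 9.80, 9.84 and 8.68 in untreated cells. In lymphoma_4936 the untreated signal was the lowest of all 10 arrays and the ADR signal the highest of the ADR arrays, and in the other 4 lymphomas the groups did not overlap. The change of Rrm1 was -0.29 ± 0.78 (adjusted p = 0.753 in limma), and -0.64 without lymphoma_4936. Rrm2 had 10.02, 10.41, 10.23, 10.67 and 10.03 in ADR cells, against 11.03, 10.86, 10.67, 10.96 and 9.15 in untreated cells. Its untreated signal in lymphoma_4936 was below every other signal of the gene, and in the other 4 lymphomas the groups met at 10.67 without overlap. The change of Rrm2 was -0.26 ± 0.70 (adjusted p = 0.754 in limma), and -0.55 without lymphoma_4936. Tyms was at or below the filter on 5 of 10 arrays, with all 4 of its probe sets low, and its changes of -0.70, -0.85, 0.63, -0.45 and 0.56 lie near the floor of the array.

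Chromatin assembly and methylation genes were all lower on average, from -0.05 for Chaf1b to -0.45 for Uhrf1, and 0 of 8 passed the test. Their median change was -0.59, -0.49, -0.33, -0.34 and 0.56. Slbp, which binds the stem-loop of histone mRNAs, had 9.48, 9.94, 10.06, 9.48 and 10.24 in ADR cells, against 10.30, 10.43, 10.27, 10.03 and 10.25 in untreated cells. The signal was lower in ADR in all 5 lymphomas, in lymphoma_4936 by 0.02, and the groups overlapped. The change of Slbp was -0.42 ± 0.31, with an unadjusted 95% interval of -0.75 to -0.09 and adjusted p = 0.565 in limma. Slbp also had the smallest SD over untreated arrays of the 39 genes, 0.14. Casp8ap2 (FLASH), which serves the processing of histone pre-mRNAs, was the other gene below an unadjusted p of 0.05 in limma, with a change of -0.33 ± 0.30 (adjusted p = 0.577). It had changes of -0.59, -0.28, -0.39 and -0.56 in 4 lymphomas and of 0.15 in lymphoma_4936, where its change was the smallest among the 33 genes with the sign pattern.

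Uhrf1, which brings the maintenance methyltransferase Dnmt1 to newly copied DNA, was named after its values were seen. It had changes of -1.09, -0.80, -0.79, -0.60 and 1.05, a mean of -0.82 without lymphoma_4936 and of -0.45 ± 0.86 with it (adjusted p = 0.663 in limma). Hells, a chromatin remodeller needed for DNA methylation, had changes of -0.80, -0.49, -0.32, -0.19 and 0.35, and Cdca7, its partner, of -0.28, -0.47, 0.03, 0.04 and 0.31. Chaf1b, a subunit of the histone chaperone CAF-1, had changes of -0.59, -0.64, -0.27, 0.27 and 1.00, and its mean turned sign in 4 of the 14 other settings tried. Atad2, an ATPase with a bromodomain, and Nasp, a histone H3 and H4 chaperone, had the sign pattern with mean changes of -0.27 ± 0.59 and -0.09 ± 0.61.

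Of the 6 genes of repair and ubiquitin turnover 5 were lower on average and Ung was higher, and 0 passed the test. Their median change was -0.76, -0.49, -0.35, -0.50 and 0.58. Dtl, the receptor through which the CRL4 ubiquitin ligase degrades Cdt1 and p21 on Pcna, had 7.33, 8.01, 8.13, 6.99 and 8.76 in ADR cells, against 8.67, 8.65, 8.69, 7.58 and 8.23 in untreated cells. The ADR signal of lymphoma_4936 was the highest of all 10 arrays, and the groups overlapped. Dtl had a change of -0.52 ± 0.67 (adjusted p = 0.579 in limma), and of -0.78 without lymphoma_4936. Usp1, which removes ubiquitin from Pcna and Fancd2, had 10.23, 10.73, 10.66, 9.54 and 10.51 in ADR cells, against 10.87, 11.08, 10.98, 9.78 and 9.88 in untreated cells. Both arrays of lymphoma_1032 and the untreated array of lymphoma_4936 had the lowest signals. Its change was -0.18 ± 0.48 (adjusted p = 0.767 in limma), and -0.39 without lymphoma_4936.

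Ung, the glycosylase that removes uracil from DNA and that B cells also use in antibody diversification, had 6.68, 7.48, 7.85, 6.36 and 7.72 in ADR cells, against 6.87, 7.81, 7.81, 5.88 and 7.28 in untreated cells. It was lower in lymphoma_5783 and lymphoma_7890 and higher in the others, and the groups overlapped. Ung was the gene with a mean change above 0, 0.09 ± 0.37 (adjusted p = 0.872 in limma), and the mean was -0.01 without lymphoma_1032. Rad51ap1 was named after its values were seen, with changes of -1.73, -0.46, -0.66, -0.77 and 1.28. Ubr7, an E3 ubiquitin ligase, and Wdr76, a WD repeat protein, had the sign pattern with mean changes of -0.24 ± 0.52 and -0.39 ± 0.55.

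The activator E2f1 and the atypical repressor E2f8 differed in how uniform they were. E2f8 had 6.22, 7.35, 7.38, 6.17 and 7.54 in ADR cells, against 7.97, 8.05, 7.93, 7.54 and 6.71 in untreated cells. Without lymphoma_4936 all ADR signals lay below all untreated signals, and the lowest ADR signals were those of lymphoma_5783 and lymphoma_1032. Its change of -0.71 ± 0.99 was the lowest mean of the 39 genes (adjusted p = 0.583 in limma), and it was -1.09 without lymphoma_4936. E2f1 had 6.30, 7.16, 7.13, 6.08 and 7.36 in ADR cells, against 7.0, 7.11, 7.24, 7.17 and 6.44 in untreated cells. Its signal was lower in ADR by 0.70 in lymphoma_5783, 0.11 in lymphoma_9250 and 1.09 in lymphoma_1032, and higher by 0.05 in lymphoma_7890 and 0.92 in lymphoma_4936. E2f1 had a change of -0.19 ± 0.77 on average (adjusted p = 0.844 in limma), and of 0.04 without lymphoma_1032.

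**Figure D3:**
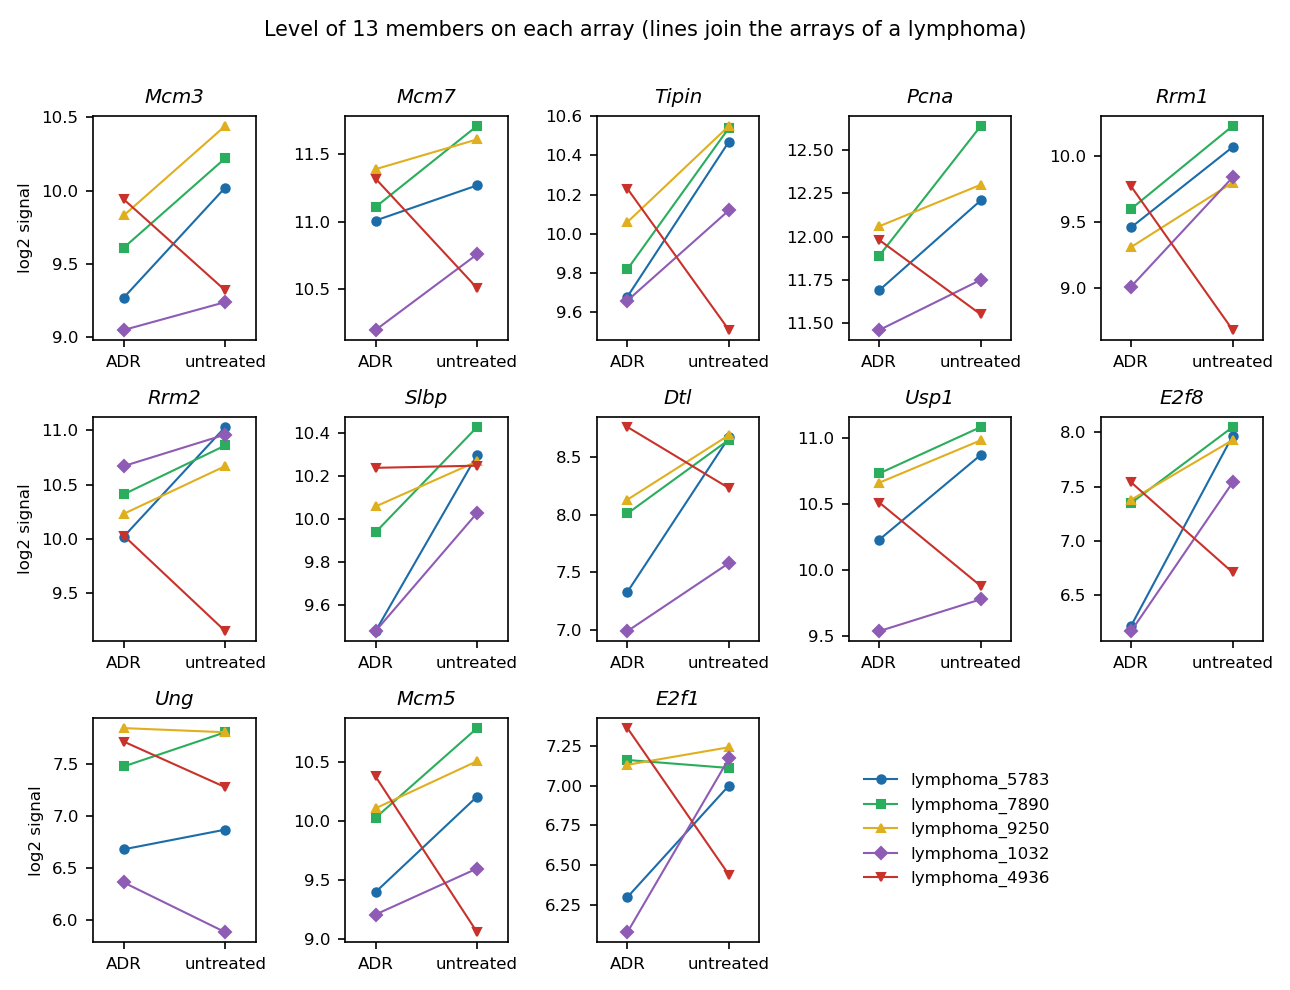
Log2 signal of 13 of the genes on each array, ADR left and untreated right, with a line joining the 2 arrays of a lymphoma and an axis of its own for each gene. The line of lymphoma_4936 slopes the other way from the rest in most panels, and is nearly level for Slbp (10.24 in ADR cells and 10.25 in untreated cells).

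**Figure D4:**
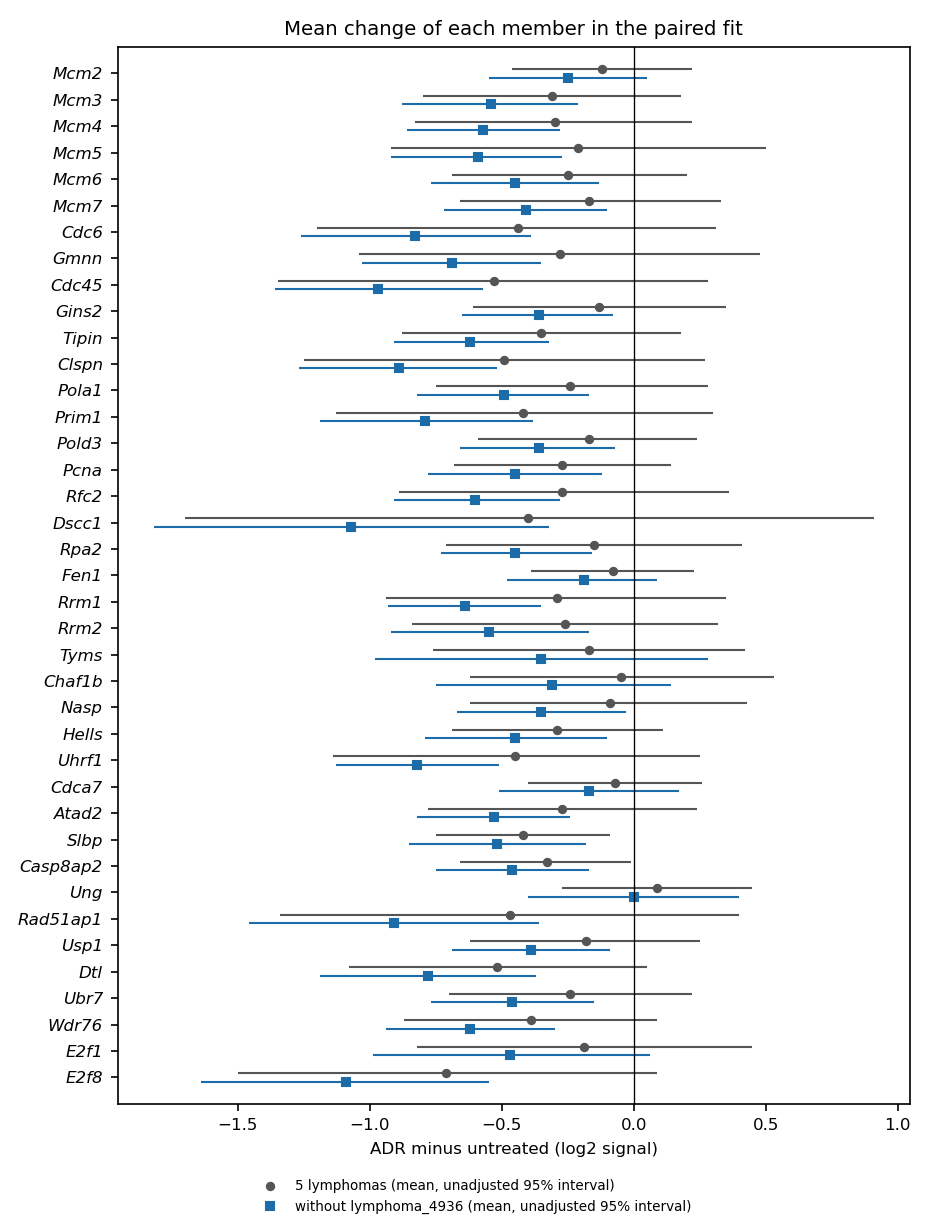
Mean change (ADR minus untreated, log2 signal) of each of the 39 genes in the paired limma fit with its unadjusted 95% interval, over 5 lymphomas (grey circles) and without lymphoma_4936 (blue squares). Over 5 lymphomas the intervals of Slbp and Casp8ap2 lie below 0 and the 37 others cross it; without lymphoma_4936 32 of 39 lie below 0.

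The replication genes varied between lymphomas more than most genes. The SD of the change over 5 lymphomas had a median of 0.61 over the 39 genes and 0.33 over all genes tested, of which 84.7% lay below that 0.61. Without lymphoma_4936 the medians were 0.22 for the 39 genes and 0.31 for all genes tested. The SD over the ADR arrays was 0.42 for the 39 genes (all genes 0.36), and over the untreated arrays 0.53 (all genes 0.35). Across the 39 genes, the changes of lymphoma_4936 correlated with those of the other lymphomas at Pearson's r of -0.34, -0.40, -0.40 and -0.63, and the other 4 among themselves at 0.15 to 0.52. Dscc1 moved these values, and without it they were -0.46, -0.27, -0.48 and -0.42, and 0.14 to 0.69. Over all genes tested the correlations were 0.03, -0.12, -0.11 and -0.02 with lymphoma_4936, and 0.1 to 0.35 among the other 4. Each point is a gene, the points share their arrays, and genes are not independent replicates.

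In lymphoma_4936 the replication genes were high among the ADR arrays and low among the untreated arrays. The median signal over the 39 genes was 8.09, 8.71, 9.00, 8.34 and 8.99 on the ADR arrays, and 8.87, 9.42, 9.30, 8.57 and 8.21 on the untreated arrays. The change in lymphoma_4936 was 0.5 or more in 31 of 39 genes, against 12.1% of all genes tested. Its ADR array had the highest signal of the ADR arrays in 20 genes, against 22.9% of all genes tested, and its untreated array the lowest of the untreated arrays in 29 genes, against 30.1%. The other 10 genes were lowest in the untreated array of lymphoma_1032.

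Compared with the other 4 lymphomas, the untreated array of lymphoma_4936 lay below the median of their ADR arrays in 33 genes and below every one of their ADR arrays in 16. Its ADR array lay within the range of their untreated arrays in 25 genes, below all of them in 10 and above all of them in 4. The same counts over all genes tested are not given here. These counts therefore cannot be told apart from the position of its arrays over all genes. The arrays of lymphoma_4936 were closest to each other, as were the arrays of each lymphoma. Which of its arrays was treated is taken from the labels. An exchange of labels within this pair would turn the sign of each of its changes and leave the closeness of its arrays as it is, and this was not tested. The gap in signal between the ends of the control transcripts, 3' minus 5', a sign of RNA quality, was 0.06 larger in its ADR array than in its untreated array, the same as in lymphoma_9250. Cdkn1a was at 9.34 in its ADR array and at 8.85 in its untreated array.

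Other genes of the same pathway, taken from lists by role, showed the same pattern in part. The lists were chosen with earlier results of these data known and are read on the same arrays, so they are no separate test. In none of the lists did a gene rise or fall by the test. Among all genes tested 55.2% were lower on average, 9.87% had the sign pattern and 8.31% were lower at an unadjusted p below 0.05 without lymphoma_4936. In helicase activation and fork protection 12 of 12 genes were lower on average, 12 had the sign pattern and 11 were lower at an unadjusted p below 0.05 without lymphoma_4936. Dbf4, the activator of the kinase Cdc7, had a change of -0.45 ± 0.31 and Mtbp, a partner of the origin firing factor treslin, of -0.52 ± 0.48. Of 9 origin recognition and helicase loading genes 8 were lower on average, 5 had the pattern and 5 were lower at an unadjusted p below 0.05 without lymphoma_4936. Orc6 had a change of -0.32 ± 0.56 and Orc4 of -0.13 ± 0.12, subunits of the origin recognition complex.

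Of 23 other polymerase, clamp loader and lagging strand genes 20 were lower on average, 17 had the sign pattern and 13 were lower at an unadjusted p below 0.05 without lymphoma_4936. The clamp loader subunit Rfc4 had a change of -0.54 ± 0.62 and the primase subunit Prim2 of -0.36 ± 0.41. Chromatin assembly held 9 tested genes, all lower on average, 6 with the pattern and 4 lower at an unadjusted p below 0.05 without lymphoma_4936. For both lists the shares over all genes tested were 55.2%, 9.87% and 8.31%. In chromatin assembly Lbr, the lamin B receptor, had a change of -0.32 ± 0.24 and Dnmt1, the maintenance DNA methyltransferase, of -0.35 ± 0.59.

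Of 9 other deoxynucleotide genes 5 were lower on average, near the 55.2% of all genes tested. The sign pattern was held by 2 of the 9, against 9.87% of all genes tested, and 3 were lower at an unadjusted p below 0.05 without lymphoma_4936, against 8.31%. Dck, which phosphorylates deoxycytidine in the salvage pathway, had 9.41, 9.32, 9.30, 9.26 and 9.22 in ADR cells, against 10.29, 9.82, 9.54, 9.92 and 9.91 in untreated cells. All 5 ADR signals of Dck lay below all 5 untreated signals, lymphoma_4936 included, with a change of -0.59 ± 0.24 (adjusted p = 0.565 in limma). Dut, which keeps dUTP out of DNA, had a change of -0.43 ± 0.54.

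Of 17 E2F, Rb and S phase cyclin genes 12 were lower on average (55.2% of all genes tested), 5 had the sign pattern (9.87%) and 8 were lower at an unadjusted p below 0.05 without lymphoma_4936 (8.31%). E2f2, an activator E2F, was lower in all 5 lymphomas with changes of -1.39, -0.14, -0.25, -0.65 and -0.30, a mean of -0.55 ± 0.51 (adjusted p = 0.565 in limma). Cdk2, the S phase kinase, had a change of -0.37 ± 0.30.

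Genes of G2 and mitosis had medians of the same sign as the replication genes in each lymphoma, with a median change of -1.20, -0.56, -0.71, -0.79 and 0.74 over 47 tested genes. Of these 45 were lower on average, 40 had the sign pattern and 40 were lower at an unadjusted p below 0.05 without lymphoma_4936. The same shares over all genes tested were 55.2%, 9.87% and 8.31%. Cenpa, the centromeric histone, was lower in all 5 lymphomas with a change of -0.80 ± 0.38 (adjusted p = 0.565 in limma), and Psrc1, a spindle protein, was higher on average, 1.14 ± 0.96. The median of the mean changes was -0.52 for these genes and -0.27 for the 39 replication genes, and the difference between the lists was not tested.

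**Figure D5:**
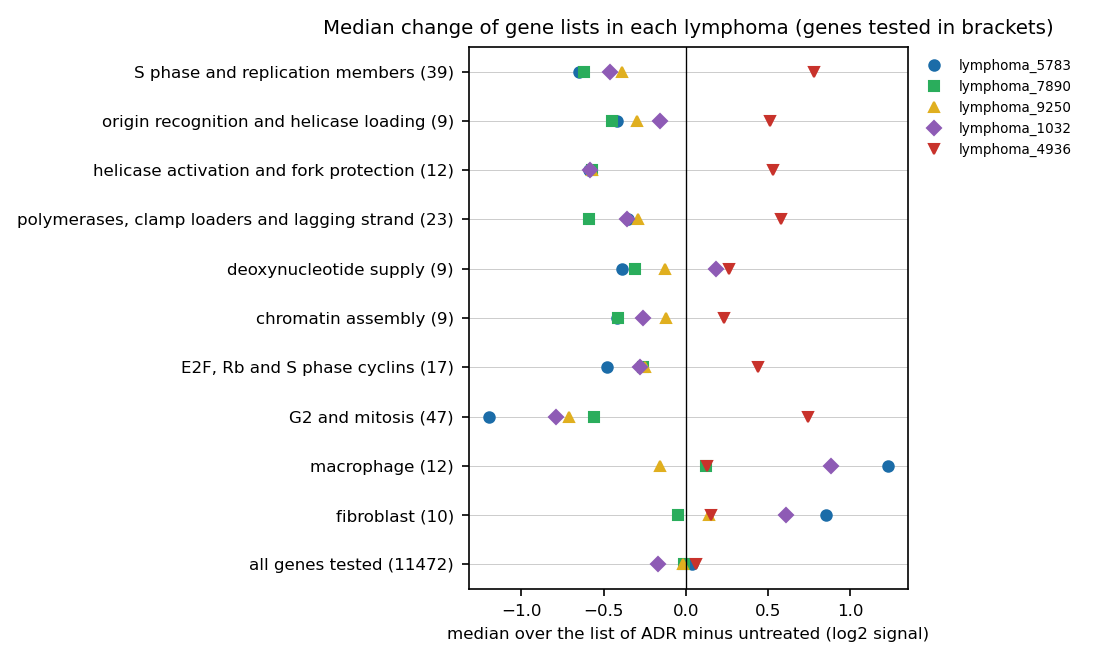
Median change (ADR minus untreated, log2 signal) over each gene list in each of the 5 lymphomas, with the number of genes tested in brackets. The symbol of lymphoma_4936 lies above 0 in each list of cell cycle genes, at 0.78 for the 39 replication genes and 0.74 for G2 and mitosis.

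Cell type markers were read on the same arrays, and 0 of those tested rose or fell by the test. All 9 B cell markers with a probe set were tested, with a mean signal between 6.93 and 9.28 on the ADR arrays and between 7.60 and 9.51 on the untreated arrays. In lymphoma_1032 Ms4a1 (CD20) was low, at 4.79 in ADR cells and 5.09 in untreated cells, against 7.87 to 11.15 in the other lymphomas. Pax5 was low on all arrays, at 4.23 and 4.89 in lymphoma_1032 and at 4.97 to 5.65 in the others. Blk was at 4.71 and 6.67 in lymphoma_1032, and was low also in lymphoma_7890, at 4.7 and 5.21. In untreated cells of lymphoma_9250 Blk was at 4.51. Of 16 macrophage markers 12 were tested and 12 were higher on average, against 44.8% of all genes tested. Their median change was 1.23, 0.12, -0.16, 0.88 and 0.13, with a mean signal over the list of 5.37 to 8.80 on the ADR arrays and 5.22 to 8.75 on the untreated arrays. Lyz2, the lysozyme of macrophages, had 13.71, 13.66, 8.81, 14.36 and 7.85 in ADR cells, against 11.61, 13.19, 9.40, 12.56 and 6.81 in untreated cells.

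The macrophage markers C1qa, C1qb, C1qc and Mrc1 did not pass the filter and had changes of -2.91, -2.40, -1.30 and -2.94 in lymphoma_5783. Of 15 fibroblast markers with a probe set 10 were tested and 8 were higher on average, against the same 44.8%, with a median change of 0.85, -0.05, 0.14, 0.61 and 0.15 and a mean signal of 4.96 to 6.86 on the ADR arrays and 5.00 to 6.39 on the untreated arrays. Fibroblast markers that did not pass the filter went both ways in lymphoma_5783. Col3a1 and Postn had changes of -1.83 and -1.67 there, and Pdgfra, Thy1 and Pdgfrb of 2.0, 0.38 and 0.28. Of 8 T cell markers with a probe set 6 were tested, with a median change of 0.19, 0.19, -0.13, -0.44 and -0.08 and a mean signal of 5.13 to 5.65 on the ADR arrays and 5.01 to 5.93 on the untreated arrays, and Cd3g was at or below the filter on all 10 arrays. Within that list Cd5 was at 10.71 in ADR cells and 11.26 in untreated cells of lymphoma_1032, and at 8.39 and 8.2 in lymphoma_5783. Over the tested markers alone, macrophage and fibroblast medians were highest in lymphoma_5783 and lymphoma_1032. The part of these cells in the lower replication signals there was not tested. In lymphoma_7890, lymphoma_9250 and lymphoma_4936 these medians lay between -0.16 and 0.15. The replication genes had medians of -0.62, -0.39 and 0.78 there, and a relation between the 2 was not tested.

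Other probe sets of the same genes gave the sign pattern in part. The 39 genes had 99 probe sets, with several for 33 genes and 1 for 6. Of the 60 not used above, 43 in 27 genes passed the filter on low signals. Of these 42 were lower on average, 29 had the sign pattern and 35 were higher in lymphoma_4936. The filter left out 17, of which 1 had the pattern. Shares over all probe sets are not given here. Over all genes tested, 55.2% were lower on average, 9.87% had the pattern and 43.6% were lower in lymphoma_4936. These probe sets read the same RNA of the same arrays and are no further replicates.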

How the data were processed

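Total RNA of 10 samples, 5 ADR and 5 untreated, was measured on Affymetrix arrays, and the deposited values are log2 signals per probe set. The submitters' processing notes name RMA and Partek. Not given in the sources used here are their versions, the settings and the log base, so log2 was inferred from the range of the values. No further normalization was applied, and the number of arrays limits the precision.

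Of 45101 probe sets, 34945 had 1 gene symbol in the platform annotation, 932 several, 9160 none, and 64 were controls; 34741 gene IDs matched the RefSeq table, and 0 symbols changed. No probe set was named for Suv39h1, so the genotype is not analysed here. Genes above the table's median of 4.43 on at least 5 of 10 arrays were tested. The fit used limma 3.58.1 (R 4.3.3) with lmFit, eBayes and the lymphoma as a block (two-sided, Benjamini-Hochberg over 11472 genes, threshold 0.05). The pairing comes from the titles; deviations from the group means correlated within the 5 pairs at 0.51 to 0.79. In simulated data for this comparison over 11472 genes, 50 genes were changed by each size on the log2 scale. Of these, 12% were called at 0.5, 66% at 1, 90% at 2 and 98% at 3. Of unchanged genes 0.0532% were called. The SD of the change over lymphomas had a median of 0.61 over the replication genes and 0.33 over all genes tested. The simulated rates therefore cannot be read as those of the replication genes, for which no separate rate is given.

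The members and lists were chosen with earlier results of these data known. Signals on every array are given, by rule, for members past the threshold, in each role the member of smallest p and of highest mean signal, members with a positive mean, and Pcna, Mcm5, E2f1 and E2f8; in other lists, changes of the 2 genes of smallest p. Cdkn1a, Dscc1 and the other genes named beside these, and the promoters shown, were chosen after their values were seen. Alternatives were no block, no or a stricter filter, other probe set rules, quantile normalization, centring, a prior with trend and robust set, weights per array and the omission of each lymphoma; the counts at an unadjusted p below 0.05 were added after seeing the data. Python 3.11.15, pandas 2.3.3 and matplotlib 3.10.9 served for tables and plots.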

Additional observations from a re-analysis of the deposited data

Results flagged for a closer look

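Each of the 39 genes was checked for a sample far from the others in its 5 changes, its 5 ADR signals and its 5 untreated signals, 117 groups in all, by the gap of the end sample to its neighbour as a share of the range, with 0.71 as the limit for 5 samples. Chance gives about 1 in 20 such groups, and the genes share their arrays. There were 22 groups over the limit. The share of such groups over all genes tested is not given here, so the count cannot be read as a trait of the 39 genes.

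In 12 the change of lymphoma_4936 stood above the other 4 lymphomas. The gap was 0.764 of the range for Mcm4, 0.803 for Mcm5, 0.731 for Mcm7, 0.763 for Gmnn, 0.721 for Cdc45 and 0.744 for Gins2. It was 0.780 for Tipin, 0.756 for Rfc2, 0.785 for Rpa2, 0.818 for Rrm1, 0.771 for Uhrf1 and 0.761 for Atad2. The changes themselves lay between 0.72 for Tipin and 1.36 for Gmnn there.

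In 1 group an ADR signal stood below the others, that of Dscc1 in lymphoma_1032 at 3.57, with a gap of 0.737. In 9 groups the untreated signal of lymphoma_4936 stood below the other untreated signals, with gaps of 0.844 for Cdc6, 0.743 for Cdc45, 0.743 for Gins2, 0.738 for Prim1 and 0.834 for Rfc2. The gaps were 0.722 for Rrm1, 0.811 for Rrm2, 0.805 for Rad51ap1 and 0.807 for Ubr7. No ADR signal of lymphoma_4936 was over the limit.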

How the results depend on the processing

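The count of genes and of replication genes past the threshold was 0 in all 14 alternatives, with a smallest adjusted p between 0.153 and 1. The number of replication genes lower on average lay between 35 and 39, of 37 with the stricter filter (without Tyms and Dscc1), of 38 when probe sets were averaged (without Tyms) and of 39 otherwise. The median change was -0.19 with arrays centred on their median and -0.37 with array weights, and -0.52 to -0.16 when a lymphoma was left out. Without the replicate block, which takes no account of the paired lymphomas, it was -0.27, with 1 replication gene and 262 genes at an unadjusted p below 0.05, against 2 and 973 with it; the block changed no call. The replication genes at an unadjusted p below 0.05 numbered 5 when probe sets were averaged, 0 with the probe set of largest variance, 1 with centred arrays, 7 with array weights and 0 to 32 when a lymphoma was left out, with 32 without lymphoma_4936. All genes at that level numbered 551 (without lymphoma_5783) to 1446 (without lymphoma_4936). Centring moved the median of all genes to 0.06 and the share of them below 0 to 39.1%, against 55.2%; relative to that median the replication genes stood at -0.25 in both settings.

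Of 543 changes of single replication genes recomputed, 531 kept their sign and 12, in 7 genes, did not. Centring turned Chaf1b to 0.03 and Cdca7 to 0.01, and array weights turned Ung to -0.02. Leaving out lymphoma_5783 turned Chaf1b to 0.09. Leaving out lymphoma_7890 turned Tyms to 0.01, Chaf1b to 0.10 and Cdca7 to 0.03. Leaving out lymphoma_9250 turned Chaf1b to 0.01 and Nasp to 0.03. Leaving out lymphoma_1032 turned Dscc1 to 0.07, Ung to -0.01 and E2f1 to 0.04. Over the 5 omissions the mean lay between -1.07 and 0.07 for Dscc1, -0.36 and 0.01 for Tyms, -0.31 and 0.10 for Chaf1b, -0.35 and 0.03 for Nasp, -0.17 and 0.03 for Cdca7, -0.01 and 0.19 for Ung, and -0.47 and 0.04 for E2f1. The cause was not tested.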
